A study of Mus musculus with 18 samples.

Results

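The 38 genes described here are glycolytic enzymes (17 genes), glucose and lactate transporters (4), further targets of the hypoxia-inducible factors, HIF (15), and the HIF alpha subunits Hif1a and Epas1 (2). They were picked by name from the 25918 genes of a count table of mouse tissue, and all 38 stand in it and passed the filter on low counts in every comparison. The table holds 18 poly(A)-selected RNA libraries of BALB/c mice, in 6 groups of 3. In the skull, labelled as interparietal bone, the groups were day 2 and day 4 of ischemic injury and a skull control. In the brain, labelled as cortex, they were day 2 and day 6 of ischemic injury and a brain control. Per the labels' protocol, the injured tissue held the ischemic and the surrounding regions together. The sources used here do not give how the injury was made, the age and sex of the mice or what the control mice underwent. No label ties a library to an animal of its own, so the p-values below measure the spread between libraries, which may be technical.

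Glycolysis breaks glucose down to pyruvate, and lactate dehydrogenase turns pyruvate into lactate when oxygen is short. The HIF alpha subunits are marked for destruction by prolyl hydroxylases (Egln genes) as long as oxygen is present. When it is not, they pair with a beta subunit and raise the transcription of most glycolytic enzymes, of glucose and lactate transporters and of genes for acid handling, vessel growth and mitochondrial turnover. Many of the enzymes and transporters listed here are thus HIF targets too, and the group called HIF targets holds the others. In cortex, neurons and astrocytes use different isozymes of this pathway, and in bone, osteoblasts are known for a strongly glycolytic metabolism.

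Library totals ran from 13005050 to 27654269 counts. Gene positions are those of GENCODE M21 on mm10. Levels are given as CPM, counts scaled to a common library size, with trimmed-mean factors set within a tissue, and a change is the log2 of the injured group over its control (± SE), called at an adjusted p below 0.05 over all genes. The tissues carried their markers: sums over the neuron markers were 4122 to 5105 CPM in brain at day 2, and over the osteoblast and osteocyte markers 8237 to 9703 CPM in skull at day 2. The skull libraries differed in markers of other tissues. Skeletal muscle markers (10 genes) summed to 23.1, 261 and 1039 CPM in the libraries of day 2, 1641, 119 and 93.1 CPM in those of day 4 and 4598, 855 and 3140.4 CPM in controls. Choroid plexus markers (5 genes) summed to 78.4, 7900.4 and 1571 CPM at day 2, 2737, 1465 and 398 CPM at day 4 and 7.06, 19.4 and 12.8 CPM in controls, so that replicate 2 of day 2 stands apart. Neuron markers (6 genes) summed to 38.4, 123 and 127 CPM at day 2, 110.3, 75.9 and 89.8 CPM at day 4 and 517, 451 and 490.0 CPM in controls. In bulk tissue, fewer cells of a type and less RNA per cell cannot be told apart.

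In skull at day 2, 28 of the 38 genes rose against the skull control and 3 fell, where 17.8% of the 17450 genes tested rose and 16.6% fell. Their median log2 change was 0.92, against -0.01 over all genes tested. Among the enzymes 11 of 17 rose, among the transporters 3 of 4, among the HIF targets 13 of 15, and Hif1a rose as well. The genes that fell were Pfkm, Aldoc and Epas1.

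Eno1 (chr4:150236721-150248879), an enolase of most tissues, stood at 176, 175 and 167 CPM in skull at day 2, against 45.2, 73.2 and 53.1 CPM in skull controls, a log2 change of 1.60 ± 0.17 (adjusted p = 0.000331). Pgk1 (chrX:106187100-106203699), the kinase of the first ATP-forming step of the pathway, was at 125, 133 and 132 CPM at day 2, against 41.8, 55.2 and 41.5 CPM in controls (log2 change 1.49 ± 0.13, adjusted p = 9.34e-05). In both genes the lowest day 2 library was far above the highest control. The others that rose were Ldha (1.18), which makes lactate, Pfkl (1.14), the liver-type subunit of phosphofructokinase, Pgam1 (1.09), Gapdh (0.95), Hk2 (0.92), the inducible hexokinase, Pkm (0.92), the pyruvate kinase outside liver and blood, Pfkp (0.61), Tpi1 (0.46) and Gpi1 (0.39), all as log2 changes.

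Pfkm and Aldoc went the other way. Pfkm (chr15:98092589-98132451), the muscle-type phosphofructokinase, stood at 38.6, 61.8 and 77.7 CPM at day 2, against 238, 90.2 and 178 CPM in controls (log2 change -1.51 ± 0.46, adjusted p = 0.0396). Aldoc (chr11:78322968-78327781), the aldolase of brain, was at 9.63, 19.9 and 13.4 CPM at day 2, against 126, 25.3 and 82.4 CPM in controls (log2 change -2.45 ± 0.59, adjusted p = 0.0170). The order of the control libraries was the same in both genes and in the muscle markers, with replicate 1 highest and replicate 2 lowest, and the part of muscle or nerve tissue in these falls was not tested. Pfkm was no longer called without any one of skull control replicates 1 and 3 and the 3 day 2 libraries (largest adjusted p 0.123), and Aldoc without day 2 replicate 1 or 3 (largest 0.0604). Hk1, Aldoa, Eno2 and Ldhb were not called, with log2 changes of -0.07, -0.20, -0.40 and -0.73. Ldhb was highest in the day 2 library richest in choroid plexus markers, and without that library its log2 change was -1.34 (adjusted p = 0.0208).

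**Figure D1:**
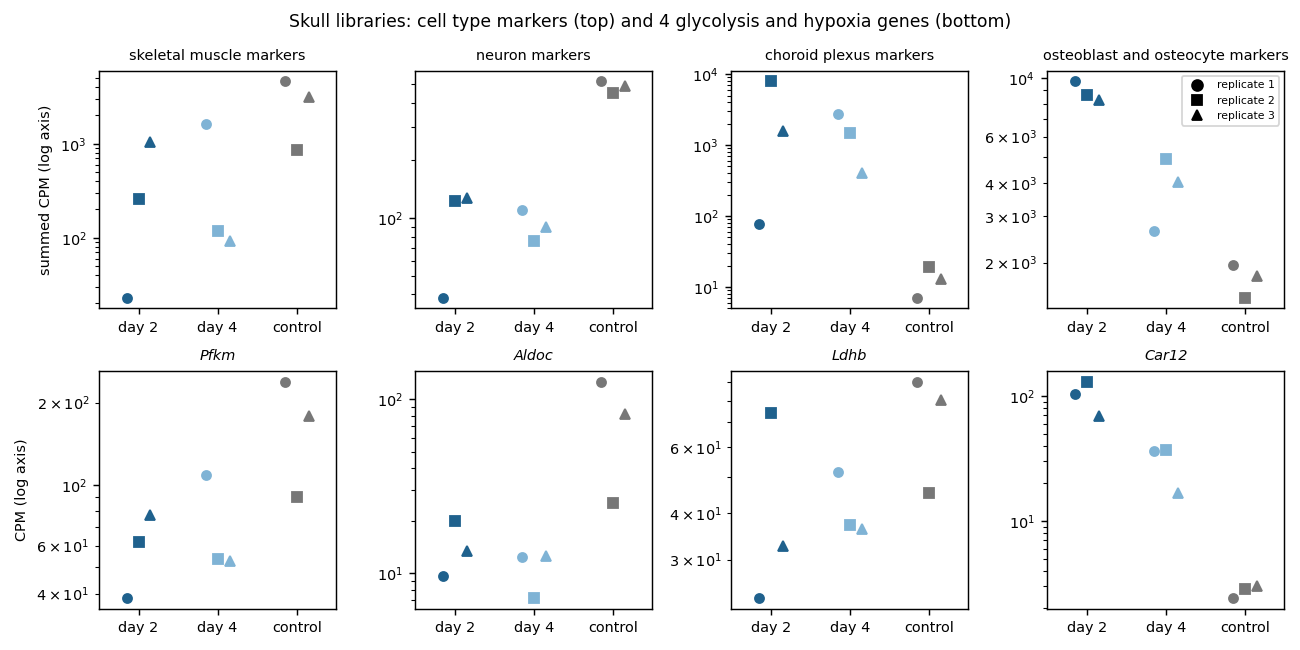
Summed CPM of marker genes of 4 tissues (top row) and CPM of Pfkm, Aldoc, Ldhb and Car12 (bottom row) in the skull libraries of day 2, day 4 and control, on log axes. One point is 1 library and its shape the replicate number. Muscle markers, Pfkm and Aldoc are highest in control replicate 1, choroid plexus markers and Ldhb at day 2 are highest in replicate 2, and Car12 is high in all 3 libraries of day 2.

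Of the transporters, Slc16a3 (MCT4, chr11:120948480-120960868), which carries lactate out of glycolytic cells, rose most. It stood at 103, 95.3 and 105 CPM in skull at day 2, against 24.7, 24.9 and 22.9 CPM in controls (log2 change 2.06 ± 0.09, adjusted p = 1.79e-05). Libraries within each group were close to each other and the groups were far apart. Slc2a1 (chr4:119108711-119137983), the widespread glucose transporter GLUT1, was at 73.97, 87.3 and 85.2 CPM at day 2, against 29.1, 50.3 and 36.6 CPM in controls (log2 change 1.09 ± 0.20, adjusted p = 0.00337). Slc16a1 (MCT1, chr3:104638668-104658462), which carries lactate in either direction, was at 114, 134 and 140.0 CPM, against 104, 87.3 and 98.00 CPM in controls (log2 change 0.42 ± 0.11, adjusted p = 0.0178). This small rise was not called without skull control replicate 3 or day 2 replicate 3 (adjusted p up to 0.0709). Slc2a3, the glucose transporter of neurons, was not called (0.11).

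Car12 and Car9 are carbonic anhydrases that sit in the cell membrane and regulate acidity outside the cell. Car12 (chr9:66713686-66766845) stood at 105, 130.3 and 68.9 CPM in skull at day 2, against 2.42, 2.84 and 3.005 CPM in controls (log2 change 5.20 ± 0.40, adjusted p = 0.000151). It was high in all 3 day 2 libraries and highest in replicate 2, the richest in choroid plexus markers. Those markers were lowest in replicate 1, at 78.4 CPM, which was still above the 7.06 to 19.4 CPM of controls. Without replicate 2 the log2 change of Car12 was 4.98 (adjusted p = 0.000483), and the part of choroid plexus in its rise was not tested. Car9 (chr4:43506966-43513729) was at 14.7, 15.1 and 19.6 CPM at day 2, against 3.496, 1.62 and 3.005 CPM in controls (log2 change 2.60 ± 0.27, adjusted p = 0.000225). Adm (chr7:110627661-110629820), which encodes the vasodilator adrenomedullin, was at 21.4, 20.1 and 28.7 CPM, against 5.78, 4.32 and 4.58 CPM in controls (log2 change 2.25 ± 0.24, adjusted p = 0.000231). Ankrd37, a small ankyrin repeat protein induced by HIF, was at 5.97, 7.13 and 8.55 CPM, against 2.35, 1.01 and 2.12 CPM in controls (log2 change 1.98 ± 0.40, adjusted p = 0.00479). None of these 4 genes overlapped between the groups, but they were named for their called and large changes.

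Smaller rises followed in Egln3 (1.58 on the log2 scale) and Egln1 (0.58), the oxygen sensors that act on HIF, in Bnip3 (1.57), a receptor for the removal of mitochondria, and in Pfkfb3 (1.37), whose product activates phosphofructokinase. P4ha1 (1.24) and P4ha2 (0.96), which hydroxylate collagen, Ndrg1 (0.81), a stress-response gene, Pdk1 (0.67), which holds back pyruvate dehydrogenase, and Kdm3a (0.30), a histone demethylase, rose too. Pfkfb4 and Mxi1 were not called (0.08 and -0.00). Osteoblast and osteocyte markers moved at the same time, with sums of 9703, 8656 and 8237 CPM at day 2 against 1964, 1473 and 1781 CPM in controls. Within that list 2 of 6 tested markers rose and 1 fell. Some markers of blood and immune cells fell. Of the B cell markers 4 of 5 fell, with sums of 14.1, 14.9 and 18.9 CPM at day 2 against 74.2, 70.2 and 68.8 CPM in controls, and of the microglia and macrophage markers 4 of 6, with 352, 305 and 363 CPM against 414, 464 and 436 CPM. Erythroid markers summed to 10901, 6542 and 1721 CPM at day 2 against 15496, 20208 and 16292 CPM in controls, with 1 of 6 called lower, and none of the 7 neutrophil markers was called. The part of any of these cell types in the rise of the 28 genes was not tested.

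The HIF alpha subunits moved apart. Hif1a (chr12:73901375-73947530) stood at 247, 251 and 295 CPM in skull at day 2, against 115, 162 and 133 CPM in controls (log2 change 0.95 ± 0.17, adjusted p = 0.00251). Epas1 (chr17:86753700-86833410), which encodes the second HIF alpha subunit, prominent in endothelium, was at 102, 115 and 111 CPM at day 2, against 147, 155 and 155 CPM in controls (log2 change -0.48 ± 0.08, adjusted p = 0.00163). Every day 2 library was above every control library in Hif1a and below every control library in Epas1. These are transcript levels, and HIF alpha is regulated largely as a protein.

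Of 65 further genes of the pathway tested in skull at day 2, 19 rose and 6 fell, where 17.8% and 16.6% of all genes tested did. Most of the rises were among the other HIF targets (10 higher and 3 lower of 16). Ero1l, an oxidase of the endoplasmic reticulum, averaged 143 ± 25.3 CPM at day 2 and 36.7 ± 2.59 CPM in controls (SD, n = 3 each), a log2 change of 1.96 ± 0.13 (edgeR adjusted p = 4.19e-05). Vegfa, the main growth factor of vessels, averaged 317 ± 57.95 CPM at day 2 and 90.4 ± 13.3 CPM in controls (1.81 ± 0.15, edgeR adjusted p = 9.04e-05). The other sugar and monocarboxylate transporters gave 3 higher and 1 lower of 10, with Slc2a4, the insulin-responsive glucose transporter of muscle and fat, at -2.30 ± 0.58. Pyruvate entry into mitochondria gave 3 higher and 1 lower of 12 (Pdk2 -0.91 ± 0.21, Pdk3 0.66 ± 0.10). Glycogen genes gave 2 higher and 1 lower of 7 (Gbe1 1.05 ± 0.16, Pygb -0.72 ± 0.10), other isozymes 1 higher and 0 lower of 12 (Pgm1 0.56 ± 0.12), and oxygen sensing 0 of 8 in either direction.

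Of the 31 genes called, 26 stayed called without each single library and under all 9 other settings. Beside Pfkm, Aldoc and Slc16a1, the calls of Gpi1 and Kdm3a were lost without skull control replicate 3 (adjusted p up to 0.0798), and that of Kdm3a also without day 2 replicate 1 or 3. The count of genes that fell was 1 with the replicate number as a block or when replicate 1 or 3 of day 2 was left out. Without replicate 2 of day 2, 28 genes rose and 3 fell.

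HIF binds the bases ACGTG or GCGTG, so the 250 bases before the RefSeq start of the genes (GRCm38.p6) were searched for both on both strands, where an ACGTG on both strands overlaps in CACGTG. A window was found for 35 of the 38 genes, all but Ndrg1, Epas1 and Slc2a3. Genes with several starts had several windows, and each gene was counted by its window with most motifs. At least 1 motif stood in 31 of the 35 genes (88.6%), against 57.9% of 12256 genes with a window among those tested in skull, and at least 2 motifs in 57.1% against 25.3%. Counted by window, at least 1 motif stood in 76.9% of 52 windows against 52.1% of 15647. Median GC content of the windows was 60.4% against 58.8%. At least 1 motif stood in 24 of the 27 genes that rose in skull at day 2 (88.9%) and in 7 of the 8 that did not (87.5%). At least 2 motifs stood in 18 of the 27 (66.7%) and in 2 of the 8 (25.0%). Median GC content was 64.0% over the windows of the genes that rose and 55.2% over those of the others. No test was made of these shares. The list was chosen to hold HIF targets, so an excess of the motif over all genes can follow from that choice alone. No motif was found in Gpi1, Tpi1, Eno2 or Car12, the gene with the largest rise. A match is a description of the letters and not a binding site. CACGT and CACGC are the motifs read on the other strand. The windows of 5 genes are shown 5′ to 3′ on the gene's strand, with motif letters in capitals, because they belong to genes with large rises in both tissues (Car9, Adm), in skull without a call in brain (Pgk1, Ldha), and to the partner of Ldha that rose in neither (Ldhb).
Car9, chr4:43506776-43507025, plus strand: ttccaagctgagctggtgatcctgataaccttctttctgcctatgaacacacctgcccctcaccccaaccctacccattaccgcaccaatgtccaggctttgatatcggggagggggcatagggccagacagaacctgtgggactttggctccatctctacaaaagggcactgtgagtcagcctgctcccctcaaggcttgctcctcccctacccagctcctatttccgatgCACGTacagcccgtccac
Adm, chr7:110627407-110627656, plus strand: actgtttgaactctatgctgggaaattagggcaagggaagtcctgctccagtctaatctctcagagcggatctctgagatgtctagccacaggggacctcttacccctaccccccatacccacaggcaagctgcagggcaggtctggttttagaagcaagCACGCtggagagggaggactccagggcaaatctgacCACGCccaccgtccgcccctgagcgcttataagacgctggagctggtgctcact
Pgk1, chrX:106186850-106187099, plus strand: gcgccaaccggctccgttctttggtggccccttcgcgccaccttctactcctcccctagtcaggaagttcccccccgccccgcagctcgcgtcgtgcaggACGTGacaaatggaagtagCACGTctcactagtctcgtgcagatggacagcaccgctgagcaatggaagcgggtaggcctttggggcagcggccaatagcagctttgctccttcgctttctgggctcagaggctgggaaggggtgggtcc
Ldha, chr7:46845554-46845803, plus strand: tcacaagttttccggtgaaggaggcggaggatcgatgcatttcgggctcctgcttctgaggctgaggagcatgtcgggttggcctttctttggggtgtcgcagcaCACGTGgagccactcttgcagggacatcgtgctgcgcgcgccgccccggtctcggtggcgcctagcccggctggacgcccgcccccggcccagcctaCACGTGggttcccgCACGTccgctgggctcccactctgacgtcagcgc
Ldhb, chr6:142507958-142508207, minus strand: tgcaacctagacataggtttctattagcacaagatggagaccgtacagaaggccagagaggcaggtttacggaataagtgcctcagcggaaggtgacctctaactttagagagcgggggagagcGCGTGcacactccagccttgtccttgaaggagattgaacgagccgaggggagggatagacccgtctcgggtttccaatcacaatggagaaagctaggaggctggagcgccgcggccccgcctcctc

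**Figure D2:**
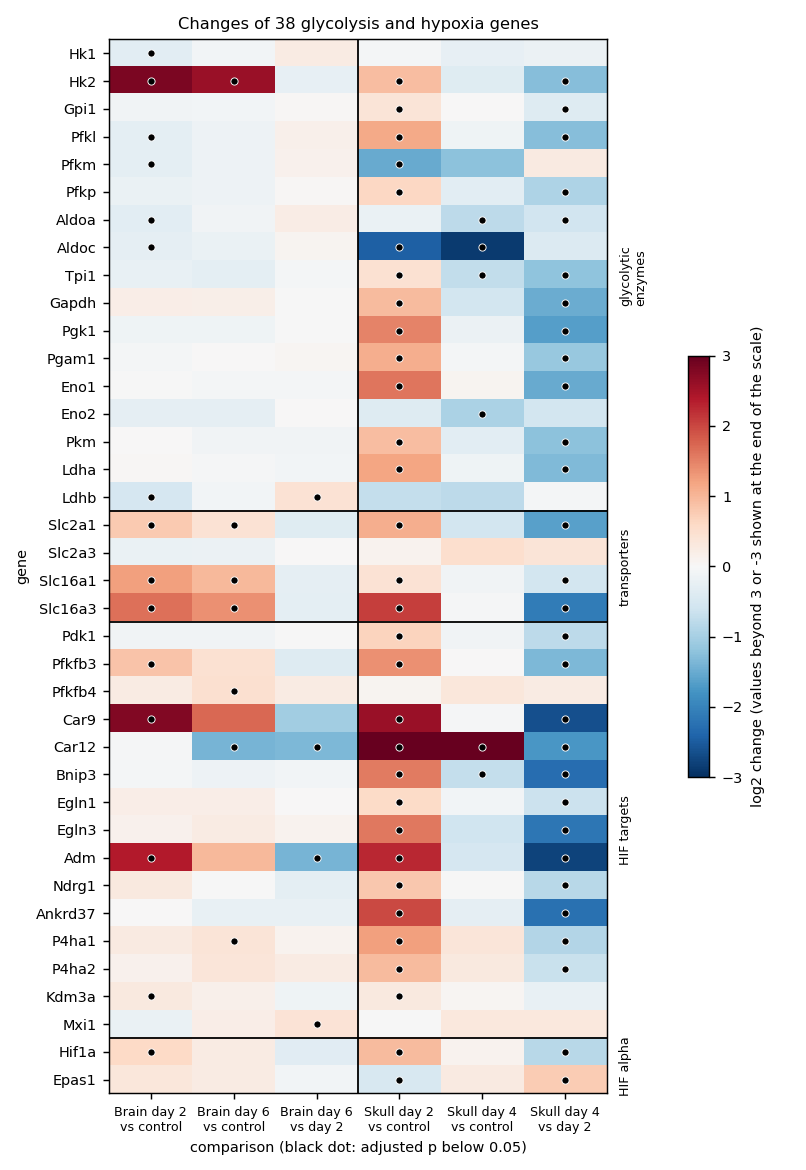
Log2 changes of the 38 genes (rows, by role) in 6 comparisons (columns, brain left and skull right). Red is higher and blue lower in the group named first, the colour scale ends at 3 and -3, and a black dot marks an adjusted p below 0.05. The column of skull day 2 against control holds 31 dots and that of skull day 4 against day 2 holds 29, nearly all with the opposite colour.

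By day 4 most of the skull changes were no longer called. Against the skull control 1 gene was higher and 5 were lower, where 5.83% and 4.79% of all genes tested were. Car12 was still high, at 36.4, 37.1 and 16.9 CPM at day 4, against 2.42, 2.84 and 3.005 CPM in controls (log2 change 3.45 ± 0.39, adjusted p = 0.00783). Choroid plexus markers summed to 2737, 1465 and 398 CPM in the same day 4 libraries, against 7.06, 19.4 and 12.8 CPM in controls. Their part in the level of Car12 was not tested. The lower genes were Aldoc, Eno2, Aldoa, Tpi1 and Bnip3. Eno2, the enolase of neurons, stood at 84.1, 72.2 and 73.5 CPM at day 4, against 119.9, 185 and 138 CPM in controls (log2 change -0.95 ± 0.18, adjusted p = 0.0179). Tpi1, triose phosphate isomerase, was at 160.4, 166 and 156 CPM, against 245, 295 and 265 CPM in controls (log2 change -0.73 ± 0.09, adjusted p = 0.00763). Each of these groups was separate from its control. Aldoa, the widespread aldolase, was at 431, 308 and 339.7 CPM at day 4, against 672, 570.0 and 617 CPM in controls (-0.79 ± 0.14, adjusted p = 0.0140). Aldoc was at 12.4, 7.17 and 12.5 CPM, against 126, 25.3 and 82.4 CPM in controls (-2.86 ± 0.60, adjusted p = 0.0306). Bnip3 was at 12.4, 9.31 and 9.51 CPM, against 19.6, 15.1 and 16.3 CPM in controls (-0.70 ± 0.19, adjusted p = 0.0427). Neuron and muscle markers were lower at day 4 than in controls as well, as given above, and their part in these falls was not tested.

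Hif1a was at 127, 183 and 132 CPM in skull at day 4, against 115, 162 and 133 CPM in controls, and the groups overlapped (log2 change 0.11 ± 0.16, adjusted p = 0.717). Epas1 was at 198, 175 and 180.3 CPM, against 147, 155 and 155 CPM in controls, with no overlap but an adjusted p of 0.0512 (0.27 ± 0.08). Of the 65 further pathway genes, 3 were higher and 5 lower at day 4, where 5.83% and 4.79% of all genes tested were. Other isozymes gave 1 higher and 2 lower (Hk3, a hexokinase of myeloid cells, 1.24 ± 0.30; Pgm2, a phosphoglucomutase, -1.11 ± 0.22), and other HIF targets 1 and 1 (Ak4, a mitochondrial adenylate kinase, -0.93 ± 0.18; Plod2, which hydroxylates collagen, 0.61 ± 0.14). Glycogen genes gave 1 and 1 (Pygl 0.94 ± 0.24, Pygb -0.36 ± 0.10), pyruvate entry 0 higher and 1 lower (Pdp1, which activates pyruvate dehydrogenase, -0.86 ± 0.14), and the transporters and oxygen sensing none. Neutrophil markers, to which Hk3 can belong, summed to 3903, 3210.3 and 5998 CPM at day 4 against 1001, 1839 and 1354 CPM in controls, and their part was not tested. None of the 6 calls held without every single library: without skull control replicate 3 no gene of the 38 was called, and among all genes of the skull fit 5 were higher and 5 lower, against 1018 and 835 with it. Counts of lower genes were 2 without day 4 replicate 2, 1 without day 4 replicate 3 and 3 with limma voom, with the replicate block or with the compared groups fitted alone, and that of higher genes was 2 without day 4 replicate 1 or 2.

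Between the injured groups of the skull, 28 of the 38 genes fell at day 4 relative to day 2 and 1 rose, where 11.1% and 10.6% of all genes tested did. This comparison shares the day 2 libraries with the one against controls, so the 2 sets of changes are not independent. Markers of immune cells were higher at day 4 than at day 2: 6 of 7 neutrophil markers, with sums of 3903, 3210.3 and 5998 CPM at day 4 against 2076, 2043 and 1965 CPM at day 2, 5 of 6 microglia and macrophage markers, with 478, 598 and 593 CPM against 352, 305 and 363 CPM, and 3 of 5 B cell markers, with 36.4, 26.5 and 77.5 CPM against 14.1, 14.9 and 18.9 CPM. Osteoblast and osteocyte markers gave 2 higher and 2 lower of 6. Their part in the falls was not tested. The enzymes gave 12 lower of 17, the transporters 3 of 4 and the HIF targets 12 of 15. Pgk1 stood at 36.2, 41.1 and 46.3 CPM at day 4, against 125, 133 and 132 CPM at day 2 (log2 change -1.66 ± 0.13, adjusted p = 0.000106). Eno1 was at 50.4, 61.9 and 69.2 CPM, against 176, 175 and 167 CPM at day 2 (-1.51 ± 0.17, adjusted p = 0.000732). Ldha was at 279, 320.1 and 321 CPM, against 747, 745 and 802 CPM at day 2 (-1.32 ± 0.12, adjusted p = 0.000175). In all 3 genes every day 4 library lay below every day 2 library. Gapdh was at 11.2, 8.24 and 9.196 CPM, against 25.8, 23.7 and 31.5 CPM at day 2 (-1.49 ± 0.16, adjusted p = 0.000504), a low level for an enzyme of this step. Copies of its sequence at 95% identity over at least 150 bases stand in 79 other genes and cover 88.0% of its transcript, and how the authors' counting treated such reads is not stated in the labels or notes.

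Slc16a3 stood at 21.9, 22.6 and 26.6 CPM at day 4, against 103, 95.3 and 105 CPM at day 2 (log2 change -2.10 ± 0.09, adjusted p = 1.61e-05). Slc2a1 was at 28.7, 29.9 and 21.1 CPM, against 73.97, 87.3 and 85.2 CPM at day 2 (-1.63 ± 0.20, adjusted p = 0.00114), and Slc16a1 changed by -0.54 ± 0.11. Adm was at 3.72, 4.204 and 2.34 CPM, against 21.4, 20.1 and 28.7 CPM at day 2 (-2.77 ± 0.25, adjusted p = 0.000175). At day 4 Slc16a3 and Slc2a1 overlapped with their controls, and Adm lay just below them. Car9 was at 2.44, 2.56 and 2.88 CPM, against 14.7, 15.1 and 19.6 CPM at day 2 (-2.65 ± 0.27, adjusted p = 0.000383). Bnip3 was at 12.4, 9.31 and 9.51 CPM, against 45.5, 42.1 and 63.7 CPM at day 2 (-2.27 ± 0.19, adjusted p = 0.000138). Ankrd37 was at 0.770, 1.65 and 2.18 CPM, against 5.97, 7.13 and 8.55 CPM at day 2 (-2.24 ± 0.41, adjusted p = 0.00513). Bnip3 thus ended below its controls, while Car12 (-1.75 ± 0.32 between the days) stayed above them.

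Hif1a fell and Epas1 rose between the days. Hif1a was at 127, 183 and 132 CPM at day 4, against 247, 251 and 295 CPM at day 2 (log2 change -0.84 ± 0.17, adjusted p = 0.00767). Epas1, the only one of the 38 genes called higher, was at 198, 175 and 180.3 CPM at day 4, against 102, 115 and 111 CPM at day 2 (0.76 ± 0.08, adjusted p = 0.000387). Hk1, Pfkm, Aldoc, Eno2, Ldhb, Slc2a3, Pfkfb4, Kdm3a and Mxi1 were not called in either direction. Of the further pathway genes, 4 rose and 19 fell, where 10.6% and 11.1% of all genes tested did. The other HIF targets gave 2 higher and 8 lower, with Ak4 at -2.04 ± 0.18 and Vegfa at -1.79 ± 0.15. The genes of pyruvate entry gave 0 higher and 5 lower, with subunits of the pyruvate dehydrogenase complex, Dlat (-0.52 ± 0.08) and Dld (-0.49 ± 0.07), among them. The transporters gave 0 and 3 (Emb -0.60 ± 0.15), other isozymes 0 and 2 (Pgm2 -1.07 ± 0.22, Pgm1 -0.56 ± 0.12), glycogen genes 1 and 1 (Gbe1 -0.97 ± 0.16, Pygb 0.36 ± 0.10) and oxygen sensing 1 and 0 (Cited2 0.42 ± 0.12). Of the 29 calls 27 held without each single library and under the other settings. Gpi1 was lost in 5 of 6 such refits, all but that without day 4 replicate 3 (adjusted p up to 0.0821). Aldoa was lost without replicate 2 or 3 of either day (up to 0.0706). The single rise became 2 without day 4 replicate 2.

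**Figure D3:**
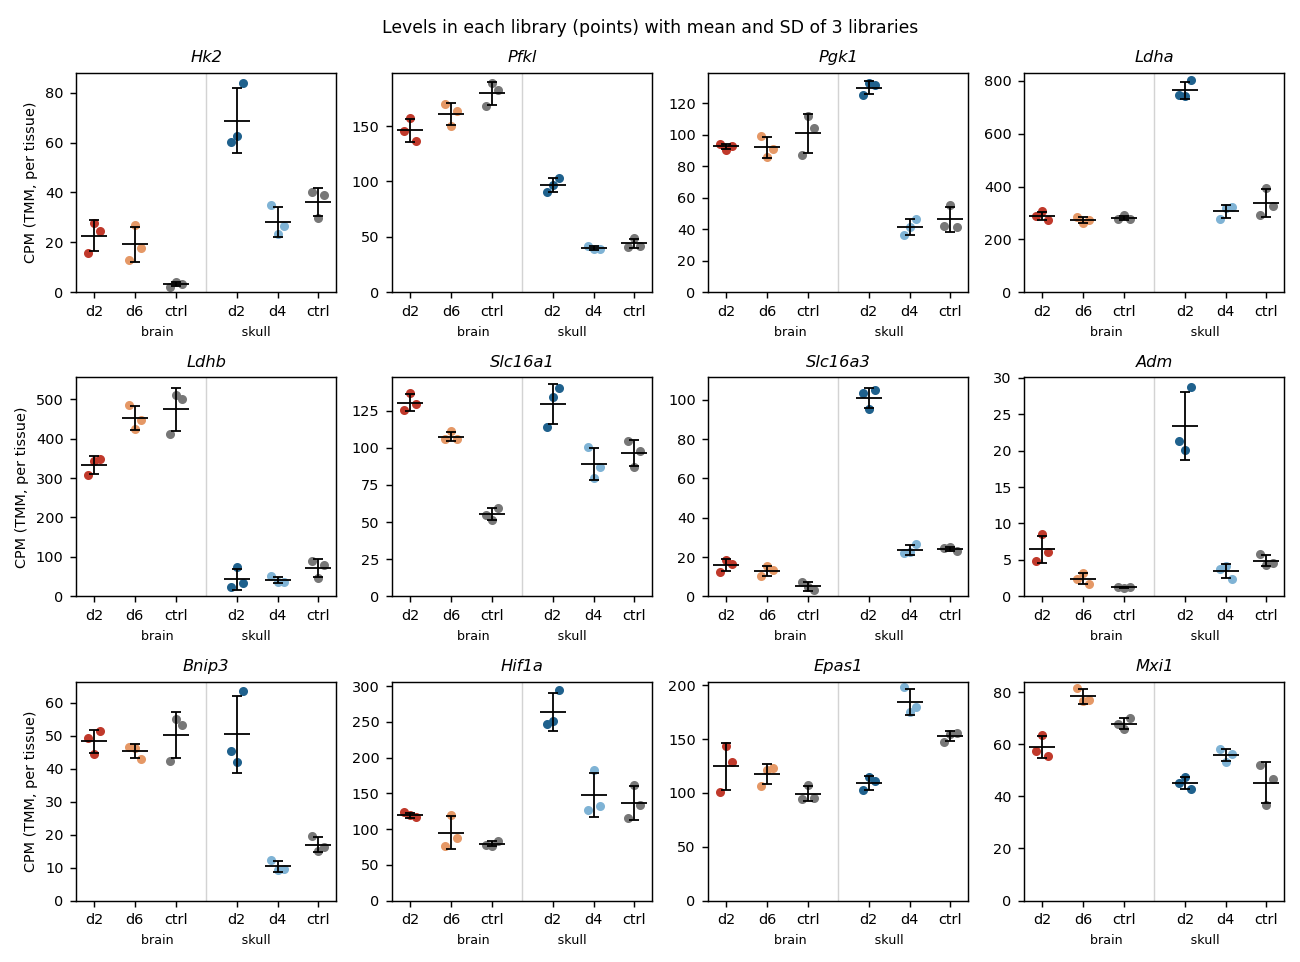
CPM of 12 genes in each of the 18 libraries (points), with the mean and SD of 3 libraries (black bars), brain at left (day 2, day 6, control) and skull at right (day 2, day 4, control) in each panel, all axes from 0. In skull, Pgk1, Ldha, Slc16a3, Adm and Bnip3 are high at day 2 alone of the 3 groups, and in brain Hk2 and Slc16a1 are high at both times while Pgk1 and Ldha are level.

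In brain at day 2, 9 of the 38 genes rose against the brain control and 6 fell, where 14.7% and 9.99% of 18151 genes tested did, and the median log2 change of the 38 was 0.01, against 0.00 over all genes. The transporters gave 3 higher of 4 and the HIF targets 4 higher of 15, with none lower. The enzymes gave 1 higher and 6 lower of 17. The enzyme that rose was Hk2 (chr6:82725025-82774454), at 15.6, 27.7 and 24.6 CPM at day 2, against 2.22, 3.94 and 3.37 CPM in brain controls (log2 change 2.83 ± 0.32, adjusted p = 0.000109). Every day 2 library was far above the highest control.

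Ldhb (chr6:142490249-142507957), the lactate dehydrogenase that prevails in neurons, stood at 307, 343 and 349 CPM in brain at day 2, against 412, 512 and 501 CPM in controls (log2 change -0.51 ± 0.10, adjusted p = 0.00264). Hk1, the main hexokinase of brain, was at 362, 346 and 309 CPM, against 437, 414 and 422 CPM in controls (-0.32 ± 0.09, adjusted p = 0.0208). Aldoa was at 878, 916 and 836 CPM, against 1074, 1138 and 1072 CPM in controls (-0.32 ± 0.10, adjusted p = 0.0289). These groups did not overlap, but the differences were small. Pfkl (-0.30), Pfkm (-0.28) and Aldoc (-0.27) fell as well, on the log2 scale. Ldha, by contrast, was at 288, 306 and 274 CPM at day 2, against 276, 291 and 277 CPM in controls, and the groups overlapped. Gpi1, Pfkp, Tpi1, Gapdh, Pgk1, Pgam1, Eno1, Eno2, Pkm and Ldha were not called. Neuron markers fell at the same time, 5 of 6 called, with sums of 4122 to 5105 CPM at day 2 against 5963 to 7949 CPM in controls, and their part in the falls of the enzymes was not tested.

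Slc16a1, which endothelium and glia of the brain use for lactate, stood at 126, 137 and 129 CPM at day 2, against 54.6, 51.7 and 59.5 CPM in controls (log2 change 1.24 ± 0.09, adjusted p = 9.41e-07). Slc16a3 was at 12.4, 18.6 and 16.6 CPM, against 7.25, 4.72 and 3.08 CPM in controls (1.66 ± 0.28, adjusted p = 0.000859). Slc2a1, in brain the transporter of the blood-brain barrier and of astrocytes, was at 76.5, 118 and 105 CPM, against 59.3, 59.3 and 54.3 CPM in controls (0.80 ± 0.13, adjusted p = 0.000648). All 3 were higher in every day 2 library. Slc2a3 was not called (-0.19). Of the endothelial markers 5 of 5 rose, with sums of 191 to 318 CPM at day 2 against 119 to 129 CPM in controls, and of the microglia and macrophage markers 6 of 6, with 493 to 694 CPM against 179 to 202 CPM. Their part in the rises was not tested.

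Among the HIF targets Adm was at 4.88, 8.51 and 6.09 CPM in brain at day 2, against 1.26, 1.19 and 1.29 CPM in controls (log2 change 2.38 ± 0.31, adjusted p = 0.000106). Pfkfb3 was at 61.2, 76.5 and 76.02 CPM, against 28.3, 41.7 and 48.6 CPM in controls (0.85 ± 0.20, adjusted p = 0.0116). Car9 rose at a very low level, 1.496 to 1.85 CPM at day 2 against 0 to 0.595 CPM in controls (2.77 ± 0.75, adjusted p = 0.0151), and 1 control library held no count of it. Its log2 change depended on the settings, at 3.85 with limma voom and 5.09 without brain control replicate 2, the control with the highest level. Kdm3a was at 58.3, 52.9 and 64.4 CPM, against 46.7, 46.5 and 50.8 CPM in controls (0.29 ± 0.10, adjusted p = 0.0441). Groups did not overlap in any of these 4 genes, which were named because they were called. The other 11 HIF targets were not called, Car12 (-0.04), Bnip3 (-0.06), Ankrd37 (0.01) and Egln3 (0.13) among them.

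Hif1a stood at 123, 119 and 116 CPM in brain at day 2, against 78.3, 76.3 and 83.6 CPM in controls (log2 change 0.59 ± 0.13, adjusted p = 0.00581), without overlap. Epas1 was at 101, 144 and 129 CPM, against 94.6, 107 and 95.7 CPM in controls, and overlapped (0.33 ± 0.12, adjusted p = 0.0617). Of 67 further pathway genes, 9 rose and 9 fell, where 14.7% and 9.99% of all genes tested did. Other isozymes gave 2 higher and 1 lower of 13: Hk3, a hexokinase of myeloid cells, averaged 12.99 ± 2.76 CPM at day 2 and 0.839 ± 0.423 CPM in controls (SD, n = 3 each; 3.93 ± 0.52, edgeR adjusted p = 0.000445), and Hkdc1, a further hexokinase, changed by -1.17 ± 0.21. Other HIF targets gave 3 higher and 2 lower of 16, with Loxl2, which cross-links collagen, at 3.50 ± 0.60 and Plod1, a collagen lysyl hydroxylase, at 1.25 ± 0.21. Among the lower ones was Vegfa, which averaged 70.1 ± 5.98 CPM at day 2 and 99.9 ± 4.87 CPM in controls (-0.51 ± 0.10, edgeR adjusted p = 0.00152), named here after its values were seen because its change in skull had the other sign. Glycogen genes gave 2 and 0 of 7 (Pygl, a glycogen phosphorylase, 1.81 ± 0.30; Gyg 0.40 ± 0.11), pyruvate entry 1 and 4 of 12 (Pdk4 0.62 ± 0.18, Pdp1 -0.61 ± 0.18), transporters 1 and 1 of 11 (Slc16a7 -0.73 ± 0.15, Slc2a12 0.70 ± 0.23) and oxygen sensing 0 and 1 of 8 (Arnt2, a partner of HIF alpha in neurons, -0.66 ± 0.09).

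Of the 15 calls in brain at day 2, 9 held without each single library and under the other settings: Hk2, Ldhb, Slc16a1, Slc16a3, Slc2a1, Pfkfb3, Car9, Adm and Hif1a. The calls of Hk1, Aldoa, Aldoc, Pfkl, Pfkm and Kdm3a were each lost in 3 to 5 of 6 refits without 1 library. The 6 genes that fell became 1 when brain control replicate 2 or day 2 replicate 3 was left out, 2 for control replicate 3, and 3 with the compared groups fitted alone, and 4 without control replicate 1 or day 2 replicate 2.

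At day 6 in brain, 6 of the 38 genes were higher and 1 was lower than in controls, where 7.93% and 2.39% of all genes tested were. Hk2 stood at 13.03, 26.9 and 17.6 CPM at day 6, against 2.22, 3.94 and 3.37 CPM in controls (log2 change 2.59 ± 0.32, adjusted p = 0.000566). Slc16a1 was at 106, 111 and 106 CPM, against 54.6, 51.7 and 59.5 CPM in controls (0.96 ± 0.09, adjusted p = 2.67e-05). Slc16a3 was at 10.3, 15.4 and 13.2 CPM, against 7.25, 4.72 and 3.08 CPM in controls (1.37 ± 0.28, adjusted p = 0.00678). The day 6 libraries of these genes lay above every control. Slc2a1 was at 72.8, 79.8 and 82.5 CPM, against 59.3, 59.3 and 54.3 CPM in controls (0.44 ± 0.13, adjusted p = 0.0484). Pfkfb4, an isoform of Pfkfb3, was at 22.1, 24.96 and 26.3 CPM, against 19.9, 15.4 and 16.99 CPM in controls (0.49 ± 0.14, adjusted p = 0.0389). P4ha1 was at 61.2, 80.9 and 70.4 CPM, against 54.1, 52.3 and 57.4 CPM in controls (0.38 ± 0.11, adjusted p = 0.0362). These rises were small, and each was lost in 4 to 6 of 6 refits without 1 library.

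Car12, the gene with the largest rise in skull, was the one that fell in brain at day 6. It stood at 11.3, 10.03 and 11.6 CPM, against 19.4, 36.4 and 30.4 CPM in controls (log2 change -1.39 ± 0.19, adjusted p = 0.000538), without overlap and in every refit. Choroid plexus markers were also low in these libraries, with sums of 2.37, 3.66 and 3.31 CPM at day 6 against 34.3, 33.2 and 20.7 CPM in controls, and their part was not tested. Car9 (0.646 to 0.927 CPM at day 6 against 0 to 0.595 CPM in controls, adjusted p = 0.189) and Adm (1.697 to 3.25 CPM against 1.19 to 1.29 CPM, adjusted p = 0.0688) were not called, but Car9 was without brain control replicate 2 (adjusted p = 0.0143). Hif1a was at 75.9, 120.3 and 88.1 CPM, against 78.3, 76.3 and 83.6 CPM in controls, and overlapped (0.26 ± 0.13, adjusted p = 0.271). Epas1 was at 107, 122 and 124 CPM, against 94.6, 107 and 95.7 CPM in controls, and overlapped as well (0.24 ± 0.12, adjusted p = 0.244). Of the 67 further genes 5 were higher and 3 lower. Among them Hk3 was at 3.80 ± 0.52 and Pgam2 at -1.13 ± 0.25 (other isozymes), Loxl2 at 3.38 ± 0.60 and Plod1 at 1.30 ± 0.21 (other HIF targets), and Pygl at 1.30 ± 0.31, beside Gyg at 0.63 ± 0.11 and Pygm at -0.63 ± 0.14, in the glycogen list. Microglia and macrophage markers summed to 609 to 1139 CPM at day 6 against 179 to 202 CPM in controls. The 6 rises became 3 without brain control replicate 3, day 6 replicate 2 or day 6 replicate 3.

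Between the injured groups of the brain, 2 genes rose and 2 fell at day 6 relative to day 2, where 5.3% and 6.26% of all genes tested did. Ldhb stood at 485, 425 and 446 CPM at day 6, against 307, 343 and 349 CPM at day 2 (log2 change 0.44 ± 0.10, adjusted p = 0.0153). Mxi1, a partner of Max that opposes Myc, was at 81.8, 76.7 and 77.00 CPM, against 57.5, 63.6 and 55.5 CPM at day 2 (0.42 ± 0.09, adjusted p = 0.00829). Adm was at 2.32, 3.25 and 1.697 CPM, against 4.88, 8.51 and 6.09 CPM at day 2 (-1.40 ± 0.30, adjusted p = 0.00924). The groups were separate in all 3. Car12 was at 11.3, 10.03 and 11.6 CPM, against 27.2, 26.4 and 30.1 CPM at day 2 (-1.35 ± 0.19, adjusted p = 0.00103). Hif1a (-0.33 ± 0.13, adjusted p = 0.132) and Epas1 (-0.09 ± 0.12, adjusted p = 0.697) were not called. Neuron markers gave 3 higher of 6 at day 6 relative to day 2. The call of Adm was lost without day 6 replicate 3 (adjusted p = 0.0521) and that of Ldhb without day 6 replicate 1 or 3 (up to 0.0678), so that the rises became 1 without either and the falls 1 without replicate 3. Of the further genes 3 rose and 5 fell, with Hkdc1 (1.18 ± 0.21) and Ero1l (-0.63 ± 0.11) among them.

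The day 2 responses of brain and skull were set against each other in 1 model, as the brain change minus the skull change. It was called for 21 of the 38 genes, 4 with a positive difference and 17 with a negative one, where 14% and 3.6% of 18863 genes were, and where the median of all genes was 0.20. The difference was positive for positive for Hk2 (1.96 ± 0.35, adjusted p = 0.00378), Slc16a1 (0.87 ± 0.15, adjusted p = 0.00244), Epas1 (0.87 ± 0.17, adjusted p = 0.00482) and Aldoc (2.24 ± 0.65, adjusted p = 0.0390). Hk2 and Slc16a1 rose more in brain, while Aldoc fell less in brain (-0.27) than in skull (-2.45) and Epas1 fell in skull and was not called in brain. The difference was negative for 10 enzymes and 7 HIF targets. Among them were Pgk1 (-1.57 ± 0.16, adjusted p = 0.000108), Eno1 (-1.56 ± 0.23, adjusted p = 0.00102), Pfkl (-1.38 ± 0.13, adjusted p = 5.91e-05), Car12 (-5.19 ± 0.38, adjusted p = 2.06e-05), Ankrd37 (-1.91 ± 0.48, adjusted p = 0.0180) and Bnip3 (-1.57 ± 0.24, adjusted p = 0.0013). The difference was not called for Car9 (0.22 ± 0.78, adjusted p = 0.876), Adm (0.18 ± 0.32, adjusted p = 0.747), Slc16a3 (-0.35 ± 0.33, adjusted p = 0.510) or Hif1a (-0.31 ± 0.16, adjusted p = 0.207), genes that rose in both tissues. That does not show equal responses, and the difference for Car9 was 1.26 with limma voom and 2.52 without brain control replicate 2 (adjusted p = 0.0677). The call of Aldoc was lost in 10 of 12 refits without 1 library, and those of Gapdh, Gpi1, P4ha2 and Pdk1 in 5 to 7. The other 16 held in all of them and under the other settings. The 4 positive differences became 3 to 5 and the 17 negative ones 13 to 17 without 1 library.

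**Figure D4:**
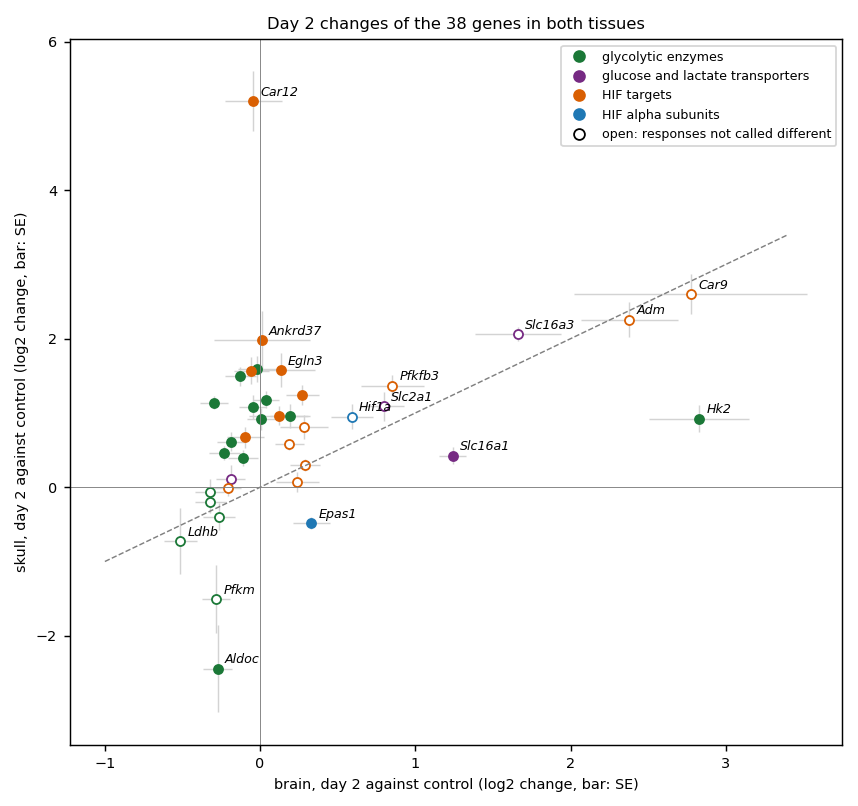
Log2 change at day 2 against control in brain (horizontal) and in skull (vertical) for the 38 genes, with SE bars, coloured by role. Filled points are genes whose responses were called different between the tissues, and the dashed line marks equal responses. Adm lies near that line, as does Car9 with a wide SE in brain, Car12 lies at 5.20 in skull and -0.04 in brain, and Hk2 lies to the right of it.

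Between the control groups, 21 of the 38 genes were higher in brain and 11 lower, where 34.5% and 36.4% of 18173 genes tested were. Of the enzymes 15 of 17 were higher in brain. Aldoc stood at 667, 645 and 586 CPM in brain controls, against 126, 25.3 and 82.4 CPM in skull controls (log2 difference 2.98 ± 0.57, adjusted p = 0.00393), and Ldhb at 412, 512 and 501 CPM, against 89.9, 45.3 and 80.4 CPM (2.69 ± 0.28, adjusted p = 0.000183). Eno2 (2.53 ± 0.18) and Pfkp (2.53 ± 0.13) followed. Hk2 was the 1 enzyme lower in brain, at 2.22, 3.94 and 3.37 CPM, against 40.01, 29.9 and 38.8 CPM in skull (-3.54 ± 0.24, adjusted p = 1.86e-05). Its CPM in brain at day 2 was still below that of every skull control, with factors set per tissue. Ldha was the 1 enzyme not called (-0.29 ± 0.12, adjusted p = 0.0573). Among the transporters Slc2a3 (1.57 ± 0.09) and Slc2a1 (0.55 ± 0.18) were higher in brain, and Slc16a3 (-2.30 ± 0.29) and Slc16a1 (-0.84 ± 0.11) lower. Of the HIF targets 4 were higher in brain, led by Car12 (3.35 ± 0.27), and 6 lower, led by Car9 (-3.53 ± 0.92, and -5.82 without brain control replicate 2) and P4ha2 (-3.11 ± 0.19). Hif1a (-0.81 ± 0.12, adjusted p = 0.000823) and Epas1 (-0.65 ± 0.08, adjusted p = 0.000376) were lower in brain. Of the 32 calls 31 held throughout, and that of Slc2a1 was lost without any brain control or skull control replicate 3 (adjusted p up to 0.095) and with upper quartile factors. Of the further pathway genes, 26 were higher and 27 lower in brain.

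Isozymes were compared as shares of their family, from CPM per kilobase of exon within a library, since levels of different genes compare only per length. A family here holds only genes described here: Hk1 and Hk2, Pfkl, Pfkm and Pfkp, Aldoa and Aldoc, Eno1 and Eno2, Ldha and Ldhb. For the transporters it holds Slc16a1 and Slc16a3, or Slc2a1 and Slc2a3. Further isozymes such as Hk3 and Eno3 were left out, so these are not shares of all hexokinase or enolase. These shares use the same counts as the changes above. With 3 libraries against 3, the exact permutation test cannot go below 0.1, and no share passed after adjustment over the 63 tests made (smallest adjusted p 0.197). In 32 of these 63 comparisons the groups did not overlap, so the separate ranges named below were common among them. Of Hk1 and Hk2 together, Hk2 made up 5.81, 10.3 and 10.2% in the brain libraries of day 2, 4.46, 9.31 and 5.51% at day 6 and 0.721, 1.34 and 1.13% in controls. In skull its share was 42.4, 39.3 and 44.5% at day 2, 29.2, 23.5 and 23.2% at day 4 and 34.8, 18.9 and 29.4% in controls. The injured brain libraries thus lay apart from their controls, and the share of Hk2 stayed below that of Hk1 in all 18 libraries. Of phosphofructokinase in skull, Pfkl made up 42.3, 34.6 and 32.7% at day 2, 14.3, 22.6 and 22.9% at day 4 and 7.38, 18.8 and 9.69% in controls, and Pfkm 43.1% ± 6.78 at day 2, 66.1% ± 7.47 at day 4 and 78.98% ± 8.43 in controls (SD, n = 3 each). The Pfkm share of the skull controls, 85.4, 69.4 and 82.1%, had the order of their muscle marker sums. The part of muscle in the phosphofructokinase shares was not tested. In brain Pfkm had overlapping shares, with 69.2% ± 0.360 at day 2, 69.9% ± 0.537 at day 6 and 69.8% ± 1.42 in controls.

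Eno2 made up 36.4, 43.7 and 46.9% of Eno1 and Eno2 together in skull at day 2, 65.6, 57.1 and 54.8% at day 4 and 75.2, 74.3 and 74.8% in controls, with 3 separate ranges. In brain its share was 87.03% ± 2.43 at day 2, 87.5% ± 0.0777 at day 6 and 88.8% ± 1.42 in controls. Ldhb made up 69.2, 70.2 and 72.9% of lactate dehydrogenase in brain at day 2, 78.2, 77.4 and 77.4% at day 6 and 75.9, 78.8 and 79.2% in controls, so that the day 2 libraries were the lowest. In skull it made up 6.26, 17.3 and 7.91% at day 2, 27.99, 19.6 and 19.3% at day 4 and 39.4, 19.5 and 34.1% in controls, with every day 2 library below every control. The Ldhb share of the skull controls also had the order of their muscle marker sums, and the part of muscle was not tested. Of Slc16a1 and Slc16a3 together, Slc16a3 made up 39.5% ± 3.02 in skull at day 2, 18.2% ± 2.55 at day 4 and 17.3% ± 1.63 in controls. Of Slc2a1 and Slc2a3 together, Slc2a3 made up 41.9% ± 7.84 in brain at day 2, 47.8% ± 2.19 at day 6 and 58.4% ± 0.885 in controls. Several of the genes described here share sequence with copies elsewhere. Copies in 5 other genes cover 94.2% of the Bnip3 transcript. Copies also cover 85.6% of the Eno1 transcript, 76.8% of Ldhb, 68.8% of Pgk1, 65.5% of Pkm and 55.0% of Ldha, among others. The levels of all these genes, Bnip3 included, and the shares built on them are thus uncertain where reads could be split. No such copy was found for Hk2, Slc16a1, Slc16a3, Car9, Car12 or Adm. None was found for Eno2 either, so any reads lost from Eno1 would raise the share of Eno2. Lengths count all annotated exons, 5379 bases for Eno1 against 2027 in its longest coding transcript, and 4705 against 2795 for Eno2. The size of a share therefore depends on the length chosen.

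**Figure D5:**
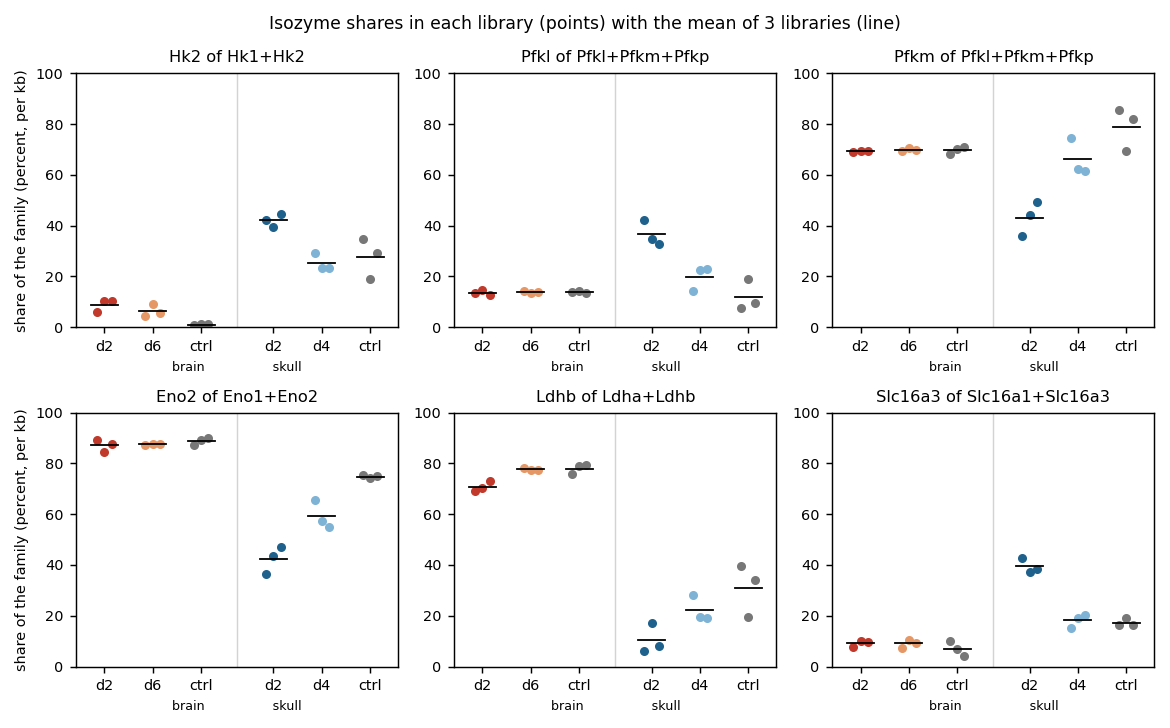
Share of 1 isozyme in the summed CPM per kilobase of the genes named in the panel title (percent, axes from 0 to 100) in each library (points), with the mean of 3 libraries (line), brain at left (day 2, day 6, control) and skull at right (day 2, day 4, control). In skull at day 2 the shares of Hk2, Pfkl and Slc16a3 are at their highest and those of Pfkm, Eno2 and Ldhb at their lowest, and in brain, of the shares drawn, those of Hk2 at both times and of Ldhb at day 2 lie apart from their controls.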

How the data were processed

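The deposited table holds raw counts of reads per gene name, whole numbers that the authors had not normalized. TRIzol extraction, a DNase step, poly(A) selection and NEBNext libraries read as pairs of 150 bases are stated in the labels' protocols. HISAT2 2.1.0 and mm10 are named in the submitters' processing notes. The sources used here do not give the counter, its annotation, its strand setting or its treatment of reads with several matches. The table has 26783 lines, of which 865 are identical copies of 49 names and were removed. Aldoa stood in 16 copies.

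Counts were fitted in R 4.3.3 with edgeR 4.0.16 (filterByExpr by group, TMM factors, robust quasi-likelihood test, two-sided), the 9 libraries of a tissue together, 12 libraries for the difference of the day 2 responses and 6 for the controls. Adjustment was by Benjamini-Hochberg across all genes tested, and calls were made below 0.05. Fitted changes use a prior count of 0.125. The procedure was run on simulated counts in which far fewer genes changed than were called at day 2. Its outcome is not given here and is no evidence on the calls above. CPM are counts over the TMM library size within a tissue, and isozyme shares divide them by GENCODE M21 exon length.

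Members and lists were chosen with earlier results of these data known. Values per library are given for at most 4 called members of each role with the largest change and at least 5 CPM in the higher group, for Hif1a and Epas1, and for members against their role. Apart from Hif1a and Epas1, genes said not to overlap were thus mostly named because they were called. The share of genes without overlap among all genes tested was not counted. Of each further list the 2 called genes with the largest change are named, except 1 gene that is not reported here. Ldha in brain and Vegfa in brain were added after their values were seen. Alternatives were DESeq2 1.42.0, limma 3.58.1 voom, upper quartile or RLE factors, a stricter filter (1 CPM in 3 libraries) or none, a replicate block, library sizes that leave out the 20 most abundant genes and haemoglobin, the compared groups alone, and leaving out each library. No 2 libraries of the same group agreed within sampling noise, and pairs across groups were not checked. All columns of the table were used.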

Additional observations from a re-analysis of the deposited data

Results flagged for a closer look

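The day 2 response was called different between brain and skull, by the edgeR interaction test over 12 libraries, for 21 of the 38 genes. Of these 4 had a positive difference and 17 a negative one, where 14% and 3.6% of 18863 genes tested did. Values are the log2 change in brain minus that in skull, and each difference is called at an adjusted p below 0.05. Without 1 library, the call was lost in 10 of 12 refits for Aldoc, 7 for Gapdh, 6 each for P4ha2 and Pdk1, and 5 for Gpi1.

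Among the enzymes Hk2 (1.96) rose in both tissues, more in brain, and Aldoc (2.24) fell in both, less in brain. The fall of Aldoc in brain was lost in 4 of 6 refits without 1 library. For a further 10 enzymes the difference was negative: Gpi1 (-0.45), Pfkl (-1.38), Pfkp (-0.75), Tpi1 (-0.64), Gapdh (-0.71), Pgk1 (-1.57), Pgam1 (-1.08), Eno1 (-1.56), Pkm (-0.86) and Ldha (-1.09). All 10 rose in skull and none was called higher in brain.

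The lactate carrier Slc16a1 (0.87) rose in both tissues, more in brain. The HIF targets with a negative difference were Pdk1 (-0.71), Car12 (-5.19), Bnip3 (-1.57), Egln3 (-1.39), Ankrd37 (-1.91), P4ha1 (-0.91) and P4ha2 (-0.78). Epas1 (0.87) fell in skull and was not called in brain. Markers of other cell types moved in both tissues between these groups, as given above, and their part in these differences was not tested.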

How the results depend on the processing

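No change of a called gene reversed its direction under any alternative. Of the counts of members called, these moved by more than 1.5 times: in brain at day 2 the lower count (6) was 3 with the compared groups alone; at day 6 the lower count (1) was 2 with DESeq2; in skull at day 2 the lower count (3) was 1 with the replicate block; at day 4 the higher count (1) was 2 with DESeq2 and the lower count (5) was 3 with limma voom, the replicate block or the compared groups alone; and between the skull days the higher count (1) was 2 with the compared groups alone. Leaving out each library gave 1 to 7 lower in brain at day 2, 3 to 5 higher at day 6, 1 to 2 higher and 1 to 3 lower between the brain days, 1 to 3 lower in skull at day 2, 0 to 2 higher and 0 to 6 lower at day 4, and 1 to 2 higher between the skull days. The cause was not tested. The large counts moved less: 8 to 10 higher in brain at day 2, 25 to 28 higher in skull at day 2 and 26 to 28 lower between the skull days.

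No comparison had all correlations of same-numbered libraries above 0.1, so the numbers are not taken to pair the libraries. Between the skull days these were -0.50, -0.13 and -0.31. With the replicate number as a block, skull day 4 against control called 383 genes higher and 382 lower over the whole table, against 1018 and 835 without it. Dividing no counts by exon length moved 8 of 63 isozyme shares by more than the spread between libraries. Leaving out 1 of 3 libraries cannot move a share that far, so those refits were no test of the shares. Low levels limit Car9, Adm and Ankrd37 in brain, where a few CPM or less give wide errors.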
